A study of Sparassis latifolia with 18 samples.

Results

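Mycelium of Sparassis latifolia kept with pine sawdust for 5 days (5d) was set directly against mycelium kept with it for 1 day (1d). The comparison used all 6 libraries of these groups, T-5d-1, T-5d-2 and T-5d-3 against T-1d-1, T-1d-2 and T-1d-3, out of 18 libraries in the series, and every gene of the deposited table. That table lists 1100 genes, 985 with EVM identifiers and 115 named as new genes, and the rule by which they were chosen is not stated. The lowest coefficient of variation (SD over mean) of a gene over the 18 libraries was 0.203, so the table holds no steady gene. Shares of all tested genes are therefore shares of this table and not of all genes of the fungus. All groups were strain SP-C grown in liquid medium. Sterilized fresh pine sawdust was added at staggered times, and all mycelium was collected at a common time after the sawdust had been filtered off. The 5d and 1d cultures thus differed in the time of pine sawdust inducing (PSI) and not in the date of harvest. If all cultures were started together, those of 1d were also older when the sawdust was added. Time of PSI and age at addition then cannot be told apart. The other groups, used here for context, had 1 h (1h), 6 h (6h) or 10 days (10d) of PSI or received none before harvest (CK), with 3 libraries each. Replicates were named biological by the study. The labels do not say whether each came from its own flask, so p-values measure the spread between libraries. In the fit of all 18 libraries this spread was pooled over all 6 groups, and that within 5d and 1d is only a part of it.

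S. latifolia is an edible cauliflower mushroom that grows on conifer wood and causes brown rot. Brown rot fungi take the cellulose and hemicellulose of wood and leave a modified lignin, with the help of small oxidants formed from hydrogen peroxide. Fresh pine wood also brings resin acids, terpenes and fats, which many fungi tolerate poorly, so enzymes of lipid breakdown, oxygenases and stress proteins are of interest beside those for sugars.

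Levels are FPKM as the authors made them, that is, fragments scaled by the length of the transcript and by the fragments mapped in the library. The sums over the table were 134845, 141562 and 133949 FPKM in T-5d-1, T-5d-2 and T-5d-3, against 129388, 132853 and 129405 FPKM in T-1d-1, T-1d-2 and T-1d-3. Depth per gene is unknown from FPKM. T-5d-2 and T-1d-3 stood apart from their partners, and they were among the 4 libraries that the paper left out for their correlations, with CK-1 and T-1h-3. Across genes, T-5d-1 had a Pearson r of 0.995 with T-5d-3, and T-5d-2 had 0.961 and 0.962 with them. T-1d-1 had an r of 0.987 with T-1d-2, whereas T-1d-3 had an r of 0.951 with T-1d-1 and 0.970 with T-1d-2. T-5d-2 had 45 genes over 2-fold above and 85 over 2-fold below the mean of its partners, and T-1d-3 had 43 and 64. For this reason calls with all 18 libraries are followed by those without T-5d-2 and T-1d-3 (16 libraries) and those with the 14 libraries that the paper kept, where they differ.

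Among the 10 largest rises were EVM0003088, EVM0002866, EVM0007207 and 3 new genes, and among the 10 largest falls were EVM0008308 and EVM0000153. Of the genes with a known function, 3 of 3 chaperone genes, 3 of 4 for fatty acid oxidation and the peroxisome, 3 of 4 for transcription factors and 2 of 4 for flavin-dependent monooxygenases were called higher at 5d. In all, 20 of 54 annotated genes were called higher, and no annotated gene was called lower. Most of them come from a list that the study made from these same libraries. Of the 83 tested genes of that list 44 were called higher, so these fractions are not independent evidence. Only 4 of the 20 annotated calls held whichever single compared library was left out. With all libraries, 88 of 1093 tested genes were higher at 5d than at 1d (8.05%) and 58 were lower (5.31%). Calls asked for a limma adjusted p under 0.01 together with a change of over 2-fold. Fold changes were taken from log2(FPKM + 1), where the added 1 shrinks the change of a gene with low FPKM. The median log2 fold change of all tested genes was 0.03, and the median SE was 0.21. The change was mostly moderate, with a median absolute log2 fold change of 1.30 in the higher genes and 1.43 in the lower ones. Over 4-fold changes were found in 16 higher and 11 lower genes, and over 8-fold in 11 higher genes and 1 lower gene, which include EVM0002866 and EVM0005970, both at or near 0 in 1 group. All 3 libraries of 5d lay beyond all 3 of 1d in 84 of the 88 higher genes and in 57 of the 58 lower ones. Among all 1093 tested genes, 5d lay wholly above 1d in 272 and wholly below in 241. The calls were made from the same libraries, so this separation is a description only. RNA came from whole mycelium, so less RNA per cell and fewer cells of a kind cannot be told apart.

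Without T-5d-2 and T-1d-3, 118 genes were called higher (10.8%) and 73 lower (6.68%). With the 14 kept libraries, 125 of 1088 were higher (11.5%) and 91 lower (8.36%). No gene called with all libraries changed its direction in either. The median SE was 0.15 with 14 libraries, against 0.22 with 16 and 0.21 with all 18. The 14 were kept for their correlations, so their spread was selected to be small and their p-values may be too low. Of the 88 higher genes, 84 were called with all 18, with 16 and with 14 libraries, and of the 58 lower genes 47 were. A fit of only the 6 compared libraries called 16 higher and 9 lower, all among the 88 and 58, and 29 of 42 called genes named here lost their call in it. Among single libraries the counts depended most on T-1d-1: with it left out, 57 genes were higher and 38 lower. Without any of the other 5 libraries, 76 to 109 were higher and 48 to 75 lower. In all, 46 of the 88 and 29 of the 58 genes were called whichever of the 6 libraries was left out. Quantile normalization, which gives every library the same distribution of values, gave 70 higher and 69 lower.

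**Figure D1:**
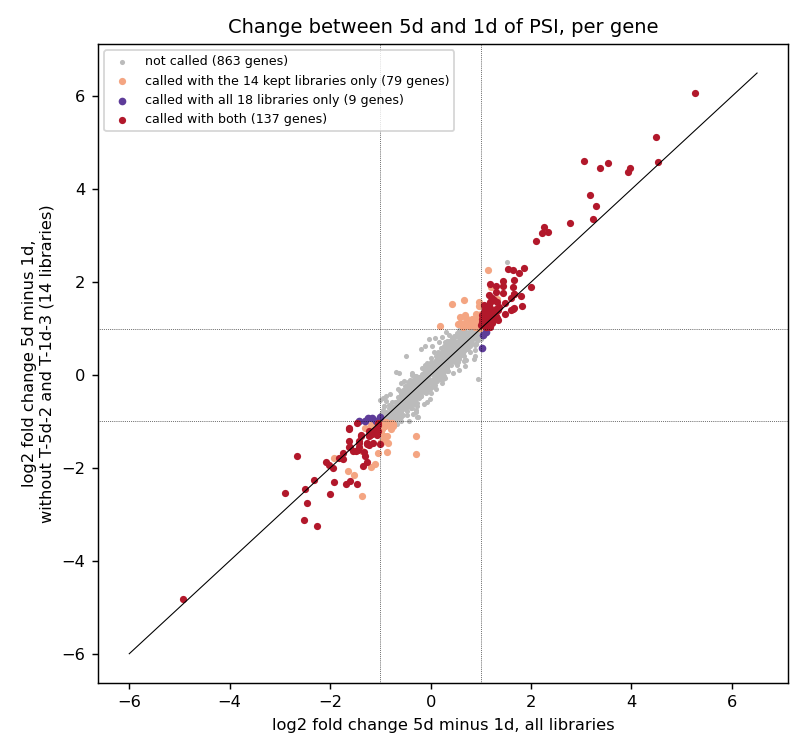
Log2 fold change of each tested gene between 5d and 1d of PSI, with all 18 libraries on the horizontal axis and with the 14 kept libraries on the vertical axis. Dotted lines mark a 2-fold change and the solid line marks equal values; 85 higher and 52 lower genes were called in both, and the kept libraries gave larger changes for most of the strongest rises.

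EVM0003088 had the largest rise that could be given as a fold, and its function is not annotated in the sources used here. It was at 685, 368 and 630 FPKM in T-5d-1, T-5d-2 and T-5d-3, against 8.17, 9.54 and 27.6 FPKM in T-1d-1, T-1d-2 and T-1d-3. In what follows, the 3 values of a group are in this order. Every 5d library was far above every 1d library, with T-5d-2 the lowest of 5d and T-1d-3 the highest of 1d. The ratio of the group means was 37.2, and the log2 fold change was 5.27 (SE 0.48, limma adjusted p 2.05e-06). The 1d values also lay under those of CK, which ran from 60.5 to 229 FPKM, and the 10d values of 466 to 519 FPKM were close to 5d. With the 14 kept libraries the log2 fold change was 6.06.

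A run of 3 new genes with neighbouring numbers rose together. Sparassis_latifolia_newGene_1025 was at 157, 277 and 316 FPKM in 5d, against 4.26, 6.76 and 29.3 FPKM in 1d (log2 fold change 4.49, SE 0.56, limma adjusted p 3.33e-05). Sparassis_latifolia_newGene_1026 was at 145, 271 and 125 FPKM in 5d, against 3.54, 8.36 and 31.7 FPKM in 1d (log2 fold change 3.94, SE 0.51). In both, T-1d-3 was the highest 1d library and still several times under the lowest 5d library. Sparassis_latifolia_newGene_1027 was the steadiest, at 45.8, 41.9 and 43.3 FPKM in 5d, against 3.27, 3.56 and 4.59 FPKM in 1d (log2 fold change 3.22, SE 0.20, limma adjusted p 6.54e-08). Means were 43.7 ± 1.97 FPKM in 5d and 3.81 ± 0.70 FPKM in 1d (SD, n = 3 each). All 3 were higher at 10d than in CK as well. In the order of their numbers, CK ran from 21.1 to 29.1, 22.8 to 47.9 and 9.72 to 16.8 FPKM. Of the 115 new genes tested, 8 were called higher and 0 lower with all libraries, beside 8.05% and 5.31% of all tested genes. With the kept libraries 10 were higher and 1 lower, out of 113, beside 11.5% and 8.36%. The share called higher was thus near that of all genes. New genes carry no annotation here, so which parts of them may overlap known genes was not examined.

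These largest changes were chosen among called genes whose groups did not overlap. The other rises were EVM0007207, EVM0003943, EVM0006112, EVM0010414 and EVM0006941, none with an annotated function. EVM0007207 was at 144, 503 and 131 FPKM in 5d, against 3.47, 7.88 and 61.2 FPKM in 1d (log2 fold change 3.98, SE 0.69, limma adjusted p 0.000347). It went on to 1001 to 1082 FPKM at 10d, and T-5d-2 was the 5d library nearest to that level. EVM0003943 was at 1474, 420 and 1365 FPKM in 5d, against 56.2, 61.2 and 153 FPKM in 1d (log2 fold change 3.53, SE 0.49). Here T-5d-2 was the low one of 5d, and it lay near the 10d libraries, at 435 to 501 FPKM. EVM0006112 behaved likewise, with 501, 198 and 463 FPKM in 5d, against 19.1, 23.1 and 83.4 FPKM in 1d. EVM0010414 was at 264, 133 and 262 FPKM in 5d, against 15.6, 18.6 and 38.1 FPKM in 1d. EVM0006941 had 62.8, 38.6 and 56.6 FPKM in 5d, against 3.59, 4.13 and 5.66 FPKM in 1d. T-5d-2 was the lowest of 5d and T-1d-3 the highest of 1d in these last 3 genes. Log2 fold changes were 3.38 for EVM0006112, 3.17 for EVM0010414 and 3.29 for EVM0006941. At 10d, EVM0003943, EVM0006112, EVM0006941 and EVM0010414 were not called against CK. In each gene of this paragraph 1d had the lowest mean of the 6 groups, so the step began from a low point. CK ran from 172 to 542 FPKM in EVM0003943, 62.9 to 175 FPKM in EVM0006112 and 41.4 to 120 FPKM in EVM0010414. In 6h these genes ran from 818 to 864, 343 to 366 and 158 to 165 FPKM. CK ran from 63.5 to 83.7 FPKM in EVM0007207 and 10.5 to 24.9 FPKM in EVM0006941.

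Among the falls, EVM0008308 was at 38.4, 19.2 and 45.9 FPKM in 5d, against 288, 217 and 244 FPKM in 1d (log2 fold change -2.90, SE 0.41, limma adjusted p 7.28e-05). EVM0000153 was at 136, 96.0 and 146 FPKM in 5d, against 841, 721 and 589 FPKM in 1d (log2 fold change -2.51, SE 0.17, limma adjusted p 1.38e-07). Its means were 126 ± 26.6 FPKM in 5d and 717 ± 126 FPKM in 1d (SD, n = 3 each), and CK lay between, at 269 to 284 FPKM. EVM0000875 was at 211, 150 and 205 FPKM in 5d, against 830, 702 and 875 FPKM in 1d (log2 fold change -2.09, SE 0.17). T-5d-2 was the lowest 5d library in all 3 genes. None of the genes named in this paragraph and the next has an annotated function in the sources used here.

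EVM0009138 was at 7.40, 14.2 and 9.06 FPKM in 5d, against 84.1, 44.0 and 54.0 FPKM in 1d. EVM0007889 was at 25.8, 14.5 and 25.4 FPKM in 5d, against 160, 102 and 82.4 FPKM in 1d. T-5d-2 was the highest of 5d in EVM0009138 and the lowest in EVM0007889, and log2 fold changes were -2.45 and -2.32. EVM0006596 was at 21.6, 8.86 and 21.4 FPKM in 5d, against 74.9, 96.1 and 43.8 FPKM in 1d (log2 fold change -2.02). EVM0001764 was at 6.49, 21.6 and 7.34 FPKM in 5d, against 92.4, 59.8 and 26.0 FPKM in 1d (log2 fold change -2.25). In EVM0001764, T-5d-2 and T-1d-3 nearly met, and the log2 fold change of the kept libraries was -3.25. EVM0007758 was at 8.60, 3.81 and 10.6 FPKM in 5d, against 109, 74.6 and 11.3 FPKM in 1d (log2 fold change -2.52, SE 0.69, limma adjusted p 0.0082). T-1d-3 was almost at the 5d level there. This call was lost when any single library other than T-1d-3 was left out, with an adjusted p of up to 0.0518. EVM0004019 was at 13.4, 3.16 and 15.4 FPKM in 5d, against 50.1, 51.0 and 94.2 FPKM in 1d (log2 fold change -2.67, limma adjusted p 0.00263). Without T-5d-2 and T-1d-3 in the fit of 16 libraries, EVM0004019 was at a log2 fold change of -1.74 with an adjusted p of 0.0379, and it was not called. It was also lost without T-5d-2 alone, at -2.04 with an adjusted p of 0.0134, and without T-1d-3 alone, at -2.37 with an adjusted p of 0.01.

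A pair of genes was at or near 0 in a whole group, and no fold is given for them. EVM0002866 was at 21.6, 20.5 and 24.6 FPKM in 5d and listed at 0 in all 3 libraries of 1d, of 6h, of 10d and of CK. In 1h its libraries ran from 0 to 23.9 FPKM. EVM0005970 was listed at 0, 0 and 0.253 FPKM in 5d, against 31.4, 30.3 and 34.0 FPKM in 1d, and it ran from 0 to 29.7 FPKM within 6h. Both were called with all, 16 and 14 libraries. Within 1h and within 6h, replicates were thus split between 0 and a clear level, and whether a 0 is a failed estimate was not tested.

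**Figure D2:**
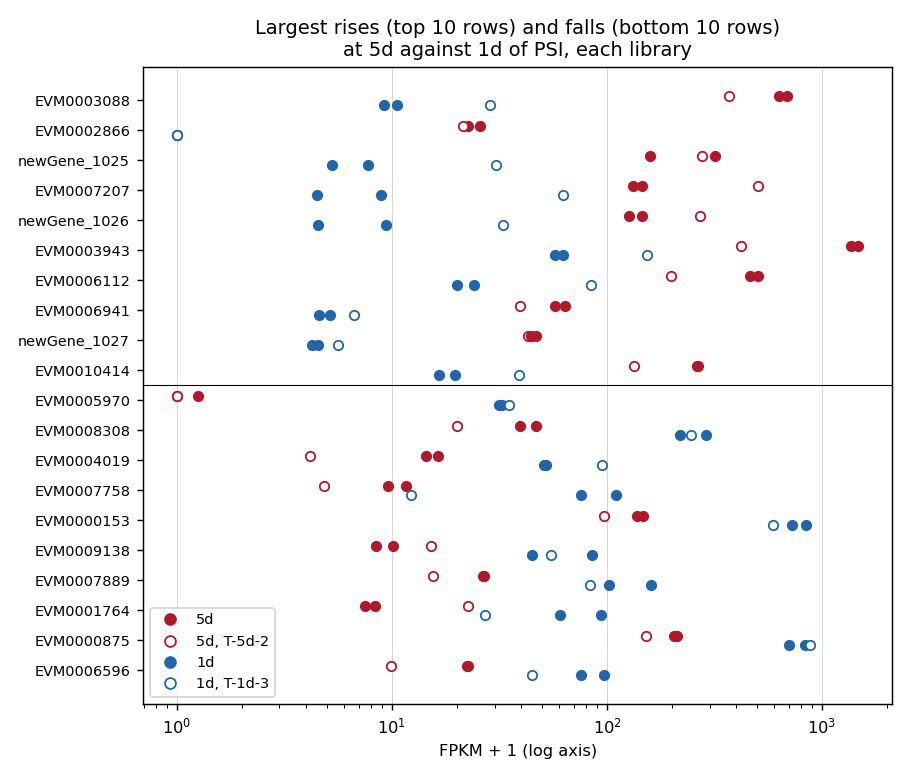
FPKM + 1 on a log axis in each library of 5d (red) and 1d (blue), for the 10 largest rises in the top rows and the 10 largest falls in the bottom rows. Open circles are T-5d-2 and T-1d-3; the genes were chosen so that the 3 libraries of 5d lie beyond the 3 of 1d, and EVM0007758 shows the smallest gap, between 10.6 and 11.3 FPKM.

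Genes with a known function were taken from the supplementary lists of the paper, 70 in all, of which 54 were in the deposited table and were tested. With all libraries 20 of the 54 rose and 0 fell, beside 8.05% and 5.31% of all tested genes, and their median log2 fold change was 0.93, beside 0.03. Without T-5d-2 and T-1d-3, 24 rose and 0 fell, and with the 14 kept libraries 27 rose and 0 fell. Most of these genes are in a list that the study made from genes linked to long PSI and changed between 10d and CK in these same libraries, so their direction is not independent evidence. Of the 83 tested genes of that list, 44 rose and 0 fell, with a median log2 fold change of 1.11. The other list, of genes changed at every time of PSI, had 28 tested genes, of which 0 rose and 1 fell, with a median of -0.12. It was picked by changes from CK at 1d and 5d, among other times, in this same series. Its small step from 1d to 5d is thus not independent of that choice. All 20 annotated genes that rose are in the first list, linked to long PSI. EVM0006776, EVM0008017, EVM0013062, EVM0008301, EVM0000788, EVM0012432, both GTPase genes and both globin and hemopexin genes are in the other list. Function and choice of list are thus mixed in the counts by function given below. Of the 982 genes in neither list, 44 rose and 57 fell. Among the annotated genes that rose, only EVM0001099, EVM0005606, EVM0002057 and EVM0012109 were called whichever of the 6 libraries was left out, 4 of 20. Under quantile normalization EVM0006992, EVM0007103, EVM0003260, EVM0001037, EVM0005719, EVM0000309, EVM0008769, EVM0011849 and EVM0009931 were not called, and the other 11 were.

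Of 4 transcription factor genes tested, 3 rose. EVM0012109, for an RNA polymerase II transcription factor, was at 86.9, 116 and 84.1 FPKM in 5d, against 26.6, 37.8 and 49.0 FPKM in 1d (log2 fold change 1.34, SE 0.18, limma adjusted p 5.7e-05). EVM0008764, for a regulator with C2H2 zinc fingers, a fold that binds DNA, was at 112, 162 and 112 FPKM in 5d, against 42.0, 55.5 and 74.6 FPKM in 1d (log2 fold change 1.17, SE 0.21). EVM0011849, for a homeobox factor, was at 23.6, 34.3 and 24.4 FPKM in 5d, against 9.08, 12.0 and 16.2 FPKM in 1d (log2 fold change 1.10, SE 0.27). In all 3, T-5d-2 and T-1d-3 were the highest libraries of their groups and the groups did not overlap. EVM0006776, for a factor with a TEA/ATTS domain, was at 108, 27.6 and 96.8 FPKM in 5d, against 88.6, 79.1 and 40.2 FPKM in 1d, and was not called (log2 fold change 0.01, SE 0.41, limma adjusted p 0.978). The same 3 were called with 16 and with 14 libraries. Leaving out T-5d-2 or T-1d-1 alone ended the call of EVM0008764, where the log2 fold change went down to 0.96. For EVM0011849, leaving out T-5d-2, T-1d-1 or T-1d-2 alone ended it, down to 0.91.

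All 3 chaperone genes rose. Hsp20 proteins are small heat shock proteins that hold unfolding proteins in solution, and BAG-domain proteins are known as partners of the chaperone Hsp70. EVM0001099, for an Hsp20, was at 156, 55.1 and 196 FPKM in 5d, against 38.0, 31.7 and 27.6 FPKM in 1d (log2 fold change 1.86, SE 0.38, limma adjusted p 0.00122). EVM0006992, for another Hsp20, was far more abundant, at 869, 475 and 1001 FPKM in 5d, against 291, 321 and 316 FPKM in 1d (log2 fold change 1.27, SE 0.27). EVM0005606, with the BAG domain, was at 145, 108 and 204 FPKM in 5d, against 48.9, 51.1 and 62.7 FPKM in 1d (log2 fold change 1.43, SE 0.24, limma adjusted p 0.000233). T-5d-2 was the lowest 5d library of all 3, and none overlapped with 1d. At 10d both Hsp20 genes were nearer to T-5d-2, at 49.0 to 88.9 FPKM for EVM0001099 and 418 to 492 FPKM for EVM0006992, and neither was called against CK. The call of EVM0006992 was lost without T-5d-3 alone, with an adjusted p of 0.0112.

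Lipases and esterases release fatty acids from fats and other esters. Of 3 tested, EVM0003260, of the GDSL-like type, rose, with 1168, 2298 and 1116 FPKM in 5d, against 311, 417 and 833 FPKM in 1d (log2 fold change 1.60, SE 0.37, limma adjusted p 0.0028). EVM0000539, a class 3 lipase, was at 3180, 5486 and 3211 FPKM in 5d, against 854, 1749 and 3385 FPKM in 1d. T-1d-3 lay above T-5d-1 and T-5d-3 there, and the gene was not called with all libraries (log2 fold change 1.16, SE 0.50, limma adjusted p 0.0714). With the 14 kept libraries it was (log2 fold change 1.39, adjusted p 0.00105), and with 16 it was not (adjusted p 0.043). EVM0004404, a carboxylesterase-family hydrolase, was not called in either. The call of EVM0003260 was lost without T-5d-2, T-1d-1 or T-1d-2 alone, with an adjusted p of up to 0.0197.

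Of the 4 genes for fatty acid oxidation and the peroxisome, the organelle where fungi shorten fatty acids and break down hydrogen peroxide, 3 rose. EVM0005719, for a dienoyl-CoA reductase that prepares unsaturated fatty acids for oxidation, was at 982, 1063 and 959 FPKM in 5d, against 300, 506 and 538 FPKM in 1d (log2 fold change 1.20, SE 0.25, limma adjusted p 0.00157). EVM0005089, for a MaoC-like dehydratase of the same pathway, was at 314, 160 and 335 FPKM in 5d, against 78.5, 152 and 118 FPKM in 1d (log2 fold change 1.19, SE 0.26). T-5d-2 exceeded T-1d-2 by little in this gene. EVM0011998, for a catalase, which splits hydrogen peroxide, was at 23.5, 40.6 and 22.9 FPKM in 5d, against 11.4, 12.1 and 14.2 FPKM in 1d (log2 fold change 1.10, SE 0.19, limma adjusted p 0.000305). The catalase call rested on T-5d-2: without it and T-1d-3 the log2 fold change was 0.93, under the fold threshold, and without T-5d-2 alone 0.84. EVM0010738, for an acyl-CoA thioesterase, was at 68.5, 17.8 and 58.9 FPKM in 5d, against 11.1, 24.1 and 20.6 FPKM in 1d, and was called with 16 and 14 libraries but not with all (log2 fold change 1.89 with 14 libraries, 1.19 with all). EVM0005719 lost its call without T-1d-1 alone, at 0.94. EVM0005089 lost it without T-5d-1, T-5d-3 or T-1d-1 alone, down to 0.93.

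Flavin-dependent monooxygenases put an oxygen atom into organic substrates, and 2 of 4 tested rose. EVM0002057 had the smallest adjusted p of the annotated genes, with 76.2, 101 and 71.7 FPKM in 5d, against 15.3, 24.0 and 21.0 FPKM in 1d (log2 fold change 2.00, SE 0.20, limma adjusted p 4.98e-06). EVM0007103 was at 1358, 497 and 1308 FPKM in 5d, against 231, 333 and 369 FPKM in 1d (log2 fold change 1.65, SE 0.39, limma adjusted p 0.00364). Its T-5d-2 value lay among those of 10d, at 468 to 544 FPKM. EVM0007103 lost its call without T-5d-1, T-5d-3 or T-1d-1 alone, with an adjusted p of up to 0.0219. EVM0008017, for a salicylate hydroxylase-like enzyme, and EVM0013062 were not called, with log2 fold changes of 0.19 and -0.44.

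Both nitronate monooxygenase genes, whose products oxidize nitronates, the anions of nitroalkanes, had T-5d-2 far below the other 5d libraries. EVM0003801 was at 93.3, 28.0 and 82.9 FPKM in 5d, against 22.2, 33.0 and 22.0 FPKM in 1d (log2 fold change 1.22, SE 0.32, limma adjusted p 0.00667). EVM0012859 was at 421, 124 and 399 FPKM in 5d, against 129, 209 and 116 FPKM in 1d (log2 fold change 0.91, SE 0.36, limma adjusted p 0.0493). In both, T-5d-2 lay within the range of 1d while the other libraries of 5d were close to each other. Without T-5d-2 and T-1d-3 both were called, with log2 fold changes of 1.66 and 1.31. With all libraries only EVM0003801 was, and that call was lost without T-5d-1, T-5d-3, T-1d-1 or T-1d-3 alone, with an adjusted p of up to 0.0388. At 10d, EVM0003801 was at 96.0 to 108 FPKM and EVM0012859 at 430 to 489 FPKM, so in these genes T-5d-2 was far from 10d.

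The enzymes for small molecules were mixed, with 3 of 5 called. EVM0002741 belongs to the AtuA family, named for the use of acyclic terpenes in the bacterium Pseudomonas, and was at 198, 24.1 and 189 FPKM in 5d, against 16.8, 30.0 and 16.1 FPKM in 1d (log2 fold change 2.22, SE 0.57, limma adjusted p 0.00583). T-5d-2 was within the 1d range again, and the log2 fold change of the kept libraries was 3.05. EVM0002741 was not called without T-5d-1, T-5d-3, T-1d-1 or T-1d-3 alone, with an adjusted p of up to 0.0338. EVM0008769, with an EthD domain, known from ether breakdown in bacteria, was at 1014, 1211 and 1011 FPKM in 5d, against 184, 493 and 439 FPKM in 1d (log2 fold change 1.65, SE 0.44, limma adjusted p 0.0069). It was not called with 16 libraries, where the adjusted p was 0.0189, or without T-1d-1 or any single 5d library, with an adjusted p of up to 0.0453. EVM0005918, for dihydroorotate dehydrogenase of pyrimidine synthesis, was low, at 6.89, 4.72 and 4.65 FPKM in 5d, against 3.14, 1.53 and 1.46 FPKM in 1d (log2 fold change 1.10, SE 0.22). It was under the threshold without T-5d-1, T-1d-2 or T-1d-3 alone, down to 0.94.

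Of 3 dioxygenases, EVM0000309, for homogentisate dioxygenase, which opens an aromatic ring in tyrosine breakdown, rose, with 99.7, 167 and 99.4 FPKM in 5d, against 25.9, 49.0 and 72.8 FPKM in 1d (log2 fold change 1.37, SE 0.34, limma adjusted p 0.00469). It was not called without T-5d-2, T-1d-1 or T-1d-2 alone, with an adjusted p of up to 0.0304. Of the carbohydrate and oxalate list, only EVM0001037, for a glutaminase A-like protein, rose, with 1415, 1162 and 1397 FPKM in 5d, against 294, 563 and 927 FPKM in 1d (log2 fold change 1.30, SE 0.28). Without T-1d-1 it was at 0.87 and not called. Glutaminase splits glutamine and is no carbohydrate enzyme. EVM0007359, of the polygalacturonase family that cuts pectin, was at 109, 141 and 111 FPKM in 5d, against 80.0, 85.7 and 61.2 FPKM in 1d, with a log2 fold change of 0.67, under the fold threshold. EVM0010362, for a cupin oxalate decarboxylase, was at 37.9, 219 and 44.1 FPKM in 5d, against 29.1, 35.7 and 57.5 FPKM in 1d, and was not called (log2 fold change 0.86, SE 0.56, limma adjusted p 0.22).

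Of 6 transporters and channels, 1 rose with all libraries. EVM0003124, for a small proteolipid known in yeast to modulate the membrane potential, was at 52.0, 96.5 and 49.3 FPKM in 5d, against 18.9, 26.9 and 36.0 FPKM in 1d (log2 fold change 1.22, SE 0.27, limma adjusted p 0.00205). It was lost without T-5d-2 or T-1d-1 alone, down to 0.91. EVM0009679, a major facilitator transporter, was at 87.0, 23.9 and 88.7 FPKM in 5d, against 11.2, 27.6 and 52.2 FPKM in 1d. It was called with 16 and with 14 libraries (log2 fold change 2.25) and not with all (1.14, limma adjusted p 0.056). The sugar transporter EVM0007546 was not called, with 1559, 3689 and 1513 FPKM in 5d, against 821, 1315 and 1804 FPKM in 1d.

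The remaining groups held 1 call with all libraries. Neither gene for a GMC oxidoreductase, a family that oxidizes alcohols and sugars, was called with all libraries, but EVM0010522, at 303, 294 and 298 FPKM in 5d, against 112, 172 and 199 FPKM in 1d, was called with 16 and with 14 (log2 fold change 1.11, and 0.93 with all). EVM0009931, for a bacteriorhodopsin-like protein, rose, with 192, 152 and 204 FPKM in 5d, against 87.1, 98.3 and 59.2 FPKM in 1d (log2 fold change 1.18, SE 0.24). Without T-1d-3 alone it was at 0.96. It was the only one of 7 other domain proteins called with all libraries. EVM0003203, a membrane protein of unknown function, and EVM0010606, with a BTB/POZ domain, were called with 16 and with 14 libraries (log2 fold changes 1.08 and 1.23, and 0.99 and 0.93 with all), and EVM0008266, with a MYND finger, with 14 alone (1.02, and 0.98 with all). Of 3 secreted proteins, 2 ribosome-binding or dynamin-like GTPases, 2 globin and hemopexin proteins and 1 short-chain dehydrogenase, 0 were called. The GTPase, globin and hemopexin genes are in the list of genes changed at every time of PSI, in which 0 of 28 tested genes rose. The hemopexin-repeat gene EVM0006142 spanned 90.7, 5.32 and 96.0 FPKM in 5d, against 151, 108 and 10.1 FPKM in 1d, so that T-5d-2 and T-1d-3 were both low. Neither cytochrome P450 gene of the lists was among the tested genes.

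**Figure D3:**
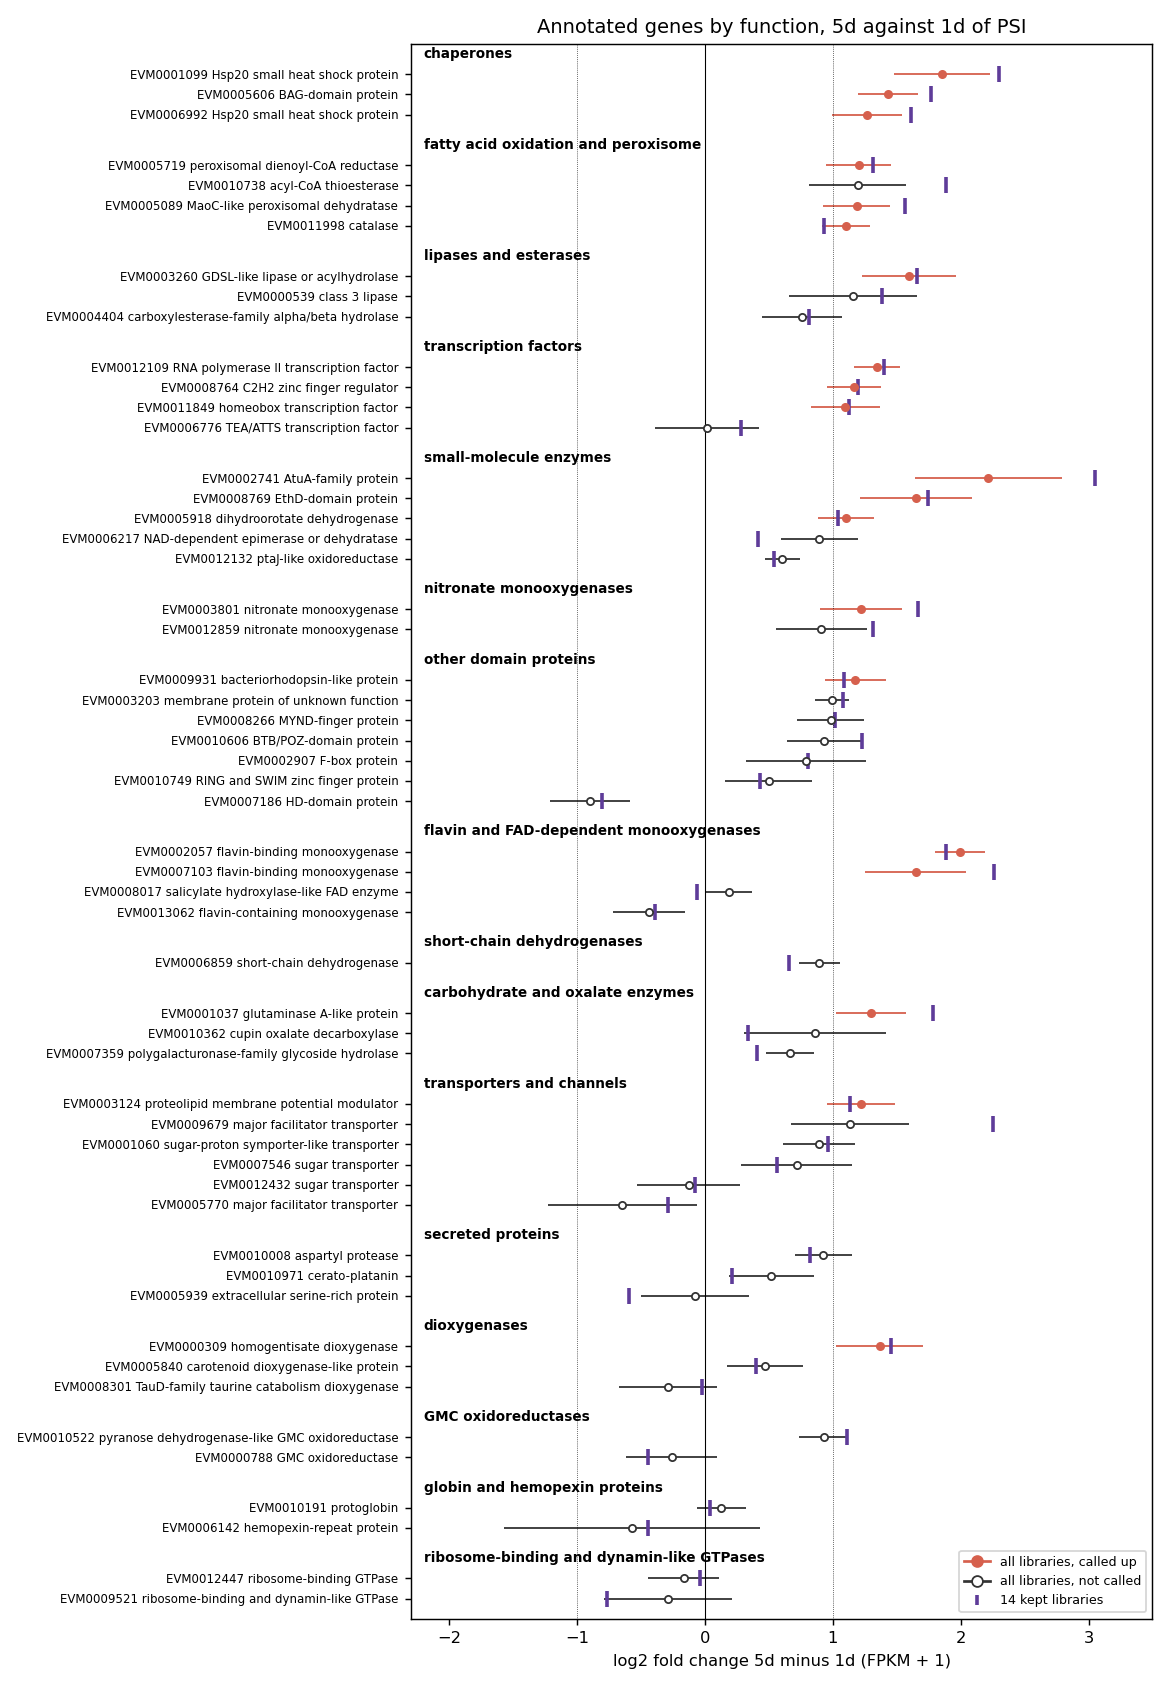
Log2 fold change between 5d and 1d for the 54 annotated genes, by function, with circles and bars for the value and SE of all libraries and purple ticks for the 14 kept libraries. Filled red circles are the 20 genes called higher; all 3 chaperones are among them, and the ticks of EVM0002741, EVM0009679 and EVM0010738 lie far to the right of their circles.

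The abundance of a few genes moved strongly, and these were chosen after their values were seen. EVM0003720, the most abundant gene of the table, was at 17377, 22544 and 16546 FPKM in 5d, against 9787, 14899 and 22775 FPKM in 1d, and was not called (log2 fold change 0.32, SE 0.33, limma adjusted p 0.444). EVM0008715 was at 4185, 3238 and 4217 FPKM in 5d, against 15008, 11208 and 7526 FPKM in 1d (log2 fold change -1.49, SE 0.29, limma adjusted p 0.000963). It took 2.84% of the table's FPKM in 5d and 8.62% in 1d, and it was called in each fit that left out 1 library but not under quantile normalization. EVM0000336 was at 446, 1533 and 478 FPKM in 5d, against 2240, 2444 and 2013 FPKM in 1d (log2 fold change -1.69, SE 0.47, limma adjusted p 0.00935). Leaving out any single library but T-5d-2 ended that call, with an adjusted p of up to 0.0471, and so did quantile normalization. EVM0008734 was at 850, 1971 and 905 FPKM in 5d, against 5983, 4819 and 904 FPKM in 1d. Its T-1d-3 value was at the level of 5d, and it was called only without T-5d-2 and T-1d-3 (log2 fold change -2.61 there, -1.37 with all libraries and an adjusted p of 0.0598).

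The libraries T-5d-2 and T-1d-3 did not enter the fit of the 14 kept libraries, so they could be set beside its calls as a further pair, with 1 library a side and no test. T-5d-2 lay above T-1d-3 in 108 of the 125 genes called higher (86.4%, against 49.2% of all tested genes), and over 2-fold above in 47 (37.6%, against 8.55%). It lay below T-1d-3 in 82 of the 91 genes called lower (90.1%, against 50.6%), and over 2-fold below in 37 (40.7%, against 7.90%). The step was smaller in this pair. On a scale with 100% at the mean of T-5d-3 with T-5d-1 and 0% at that of T-1d-2 with T-1d-1, the median gene called higher had T-5d-2 at 79.9% and T-1d-3 at 28.6%. In genes called lower, T-5d-2 was at 103% and T-1d-3 at 40.6%. The genes were picked for a large step in the same libraries that set 0% and 100%. A smaller step in libraries outside that choice is therefore partly built in. Of the 40 higher genes that were no longer called with all libraries, T-5d-2 was nearer to 1d in 20 and T-1d-3 nearer to 5d in 18. Of the 39 such lower genes, these numbers were 8 and 26. Among all 125 higher genes they were 35 and 33, and among all 91 lower genes 16 and 38. The genes lost their calls when these libraries, with CK-1 and T-1h-3, were added. Their positions are thus a description only. Beyond the compared groups, T-5d-2 had a mean r of 0.978 with the 10d libraries, and T-5d-1 and T-5d-3 each had 0.968. T-1d-3 had a higher mean r than T-1d-1 and T-1d-2 with each of the other groups, for instance 0.937 with 10d, against 0.869 and 0.910, and 0.952 with 6h, against 0.920 and 0.932.

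**Figure D4:**
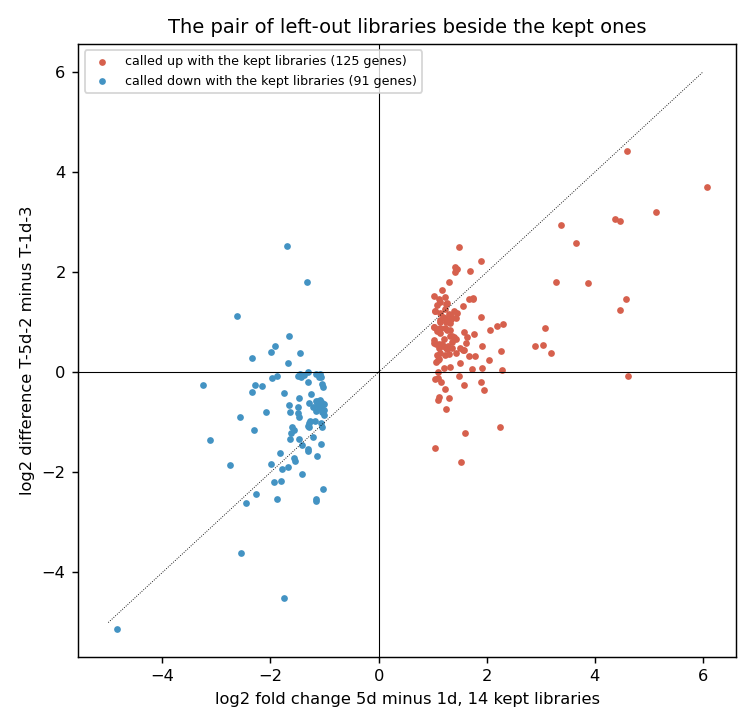
Difference of log2(FPKM + 1) between T-5d-2 and T-1d-3 (vertical axis) against the log2 fold change of the 14 kept libraries (horizontal axis), for the 125 genes called higher (red) and the 91 called lower (blue) without that pair. The dotted line marks equal values; 108 red points lie above 0 and 82 blue points below 0, with median differences of 0.77 and -0.80.

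Over the whole course, 62 of the 88 genes that were higher at 5d had a 1d mean below that of CK, and 85 had a 5d mean above it. Among all 1093 tested genes, these numbers were 595 and 496. The median of the 88 higher genes relative to CK, on the log2 scale, was -0.19 at 1h, 0.19 at 6h, -0.34 at 1d, 1.17 at 5d and 0.99 at 10d. In 44 of them (50%) the 1d mean was the lowest of the 6 groups, as it was in 18.3% of all tested genes. Their highest mean was at 5d in 39 and at 10d in 39, against 102 and 219 of the 1093 tested genes. The 58 lower genes had medians of -0.20 at 1h, 0.46 at 6h, 0.79 at 1d, -0.90 at 5d and -1.32 at 10d. In 32 of them (55.2%) 1d was the highest group, against 8.33% of all tested genes. The lowest group was 10d in 42 of them, against 395 of the 1093 tested genes. The call itself favours genes with a low or a high 1d, so the shares that involve 1d or 5d are a description only. The 10d mean was nearer to 5d than to 1d in 77 of the 88 and in 57 of the 58 genes, beside 79.9% of all tested genes.

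The 10d and CK libraries did not enter the fold changes of 5d against 1d, but they shared in the pooled spread behind the calls. Of the 88 genes higher at 5d than at 1d, 42 (47.7%) were also higher at 10d than in CK, against 14.1% of all tested genes, and 1 (EVM0002080) was lower. Of the 58 lower genes, 34 (58.6%) were lower at 10d than in CK, against 31.8% of all tested genes, and 2 were higher, EVM0005970 and EVM0008715. The median tested gene was at -0.39 on the log2 scale at 10d against CK, and quantile normalization brought it to -0.0023. After it, 46 of the 88 (52.3%) were higher, against 17.3% of all tested genes, and 24 of the 58 (41.4%) were lower, against 17%.

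**Figure D5:**
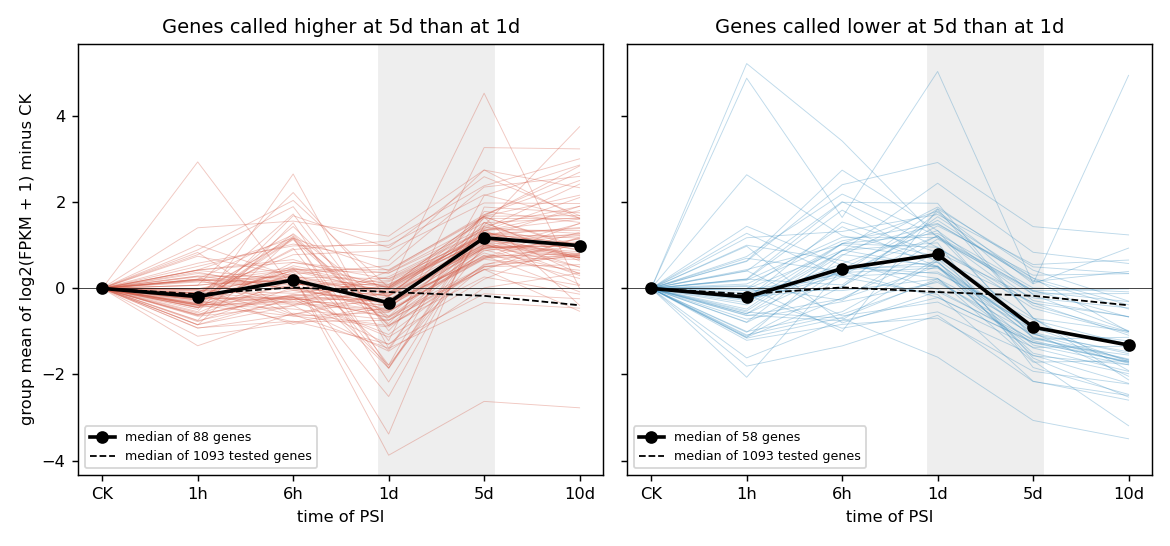
Group means of log2(FPKM + 1) minus the CK mean from CK to 10d, for the 88 genes called higher (left) and the 58 called lower (right) at 5d than at 1d. Thin lines are genes, the thick line is their median and the dashed line the median of all 1093 tested genes; the left median goes through -0.34 at 1d and 1.17 at 5d, and the right one through 0.79 and -0.90.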

How the data were processed

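RNA-seq libraries of S. latifolia mycelium were used from 1 deposited table, with 3 libraries in each of 6 groups. Its FPKM values were made by the authors. The paper names HISAT2 for mapping and StringTie for assembly, and the submitters' processing notes add Bowtie 0.12.2. The genome build is not given in the sources used here. The header names no unit, and FPKM was taken from the paper's supplementary tables, which list the same columns. Read counts were not used, so errors come from the spread of the libraries alone and not from counting.

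Values were taken as log2(FPKM + 1). A gene entered when 2 or more libraries reached 1 FPKM. limma 3.58.1 in R 4.3.3 (trend = TRUE) fitted the 6 groups in 1 model. Genes were called at a Benjamini-Hochberg adjusted p under 0.01 and a fold over 2. The scripts were tested on simulated data. Comparisons were 5d with 1d, with all 18 libraries, with 16 (without T-5d-2 and T-1d-3) and with 14 (also without CK-1 and T-1h-3), and 10d with CK. In the smaller sets, groups left with 2 libraries relied on the pooled spread. Named genes were the 10 largest rises and 10 largest falls among called genes whose groups did not overlap, and annotated genes by group. The members and lists were chosen with earlier results of these data known. Annotation came from the paper's supplementary tables. Alternatives were other sets of libraries, only the compared groups, quantile normalization, a pseudocount of 0.1, no filter, an adjusted p under 0.05, a replicate block, and omission of single libraries. Figures were drawn with matplotlib 3.10.9 in Python 3.11.15.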

Additional observations from a re-analysis of the deposited data

How the results depend on the processing

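The counts of genes higher and lower at 5d than at 1d, 88 and 58 with all libraries, moved by over 1.5 times in few settings. Fitting only the 6 libraries of 5d and 1d gave 16 and 9, all of them among the 88 and 58. That fit has far fewer degrees of freedom and also takes the spread from 5d and 1d alone. What each contributed to the lower counts was not tested. The fit of 14 libraries, without T-5d-2, T-1d-3, CK-1 and T-1h-3, gave 125 and 91. Leaving out each library in turn gave 57 to 109 higher and 38 to 75 lower genes, the fewest without T-1d-1. With these 14 libraries the ranges were 97 to 150 and 76 to 133, around 125 and 91. For 10d against CK, with 154 higher and 348 lower, they were 136 to 196 and 304 to 365, and quantile normalization gave 189 and 186. For 5d against 1d the other settings gave 70 to 96 higher and 67 to 71 lower genes for quantile normalization, a pseudocount of 0.1 and an adjusted p under 0.05, and the same counts without a filter.

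The replicate block gave 83 higher and 50 lower genes, all called without it, 122 and 103 with the 14 libraries, and 151 and 340 for 10d against CK. Deviations of same-numbered libraries of 5d and 1d had correlations of 0.25, -0.23 and -0.28, so no common pairing by number was seen. Deviations within a group depend on each other, and T-5d-2 and T-1d-3 stood apart in theirs. These correlations therefore cannot exclude a pairing. The largest correlation between a 5d and a 1d library was 0.34, for T-5d-2 with T-1d-3, both left out by the paper.

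Over all alternatives, the values of the 20 genes with the largest changes held their call in 263 cases and lost it in 17. For the 20 annotated genes that were called, it was held in 207 and lost in 73. None of these values changed sign. The FPKM values carry no depth, so genes near 1 FPKM have an unknown counting error.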
